A study of Mus musculus with 15 samples.

Results

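Oxidative phosphorylation subunit genes are the nuclear genes for the proteins of the mitochondrial electron transport chain and the ATP synthase. They were taken by gene symbol from the RefSeq annotation of GRCm38, the mouse assembly also called mm10, and 86 of 21887 protein-coding genes were subunit genes. By symbol, 37 belonged to complex I (Nduf genes), 4 to complex II (Sdh genes), 9 to complex III (Uqcr genes and Cyc1), 18 to complex IV (Cox genes) and 17 to complex V (Atp5 genes). Cycs, the gene of somatic cytochrome c, made up the rest. A peak counted for a gene when it shared at least 1 bp with the gene or the 2500 bp on either side, and it was called reproducible at the gene when at least 2 of 3 libraries had one.

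The chain carries electrons from NADH through complex I, or from succinate through complex II, to quinone, complex III, cytochrome c and complex IV, which passes them to oxygen. Complexes I, III and IV pump protons, and complex V uses the proton gradient to make ATP. Most subunits are encoded in the nucleus, and the factors NRF1, GABP, YY1 and the Sp family are known regulators of these genes. Blood stem cells are known for low mitochondrial activity, which increases as they differentiate.

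The series used CUT&Tag, which cuts and tags DNA where an antibody has placed a transposase, in HPC-7, a blood progenitor-like mouse line that was derived from embryonic stem cells. SMC3, a subunit of the cohesin ring, was profiled in cells with an shRNA against YY1 (shYY1) and in control cells, and H3K4me3, a mark of active promoters, and the transcription factor YY1 were profiled in control cells only. Each of these 4 groups had 3 libraries, called biological replicates in the protocol. The titles call the control cells wild type, whereas their descriptions carry the name of a luciferase shRNA. All shYY1 descriptions carry 1 and the same shRNA number, whose meaning is not explained. How far YY1 was reduced was not measured, as YY1 was profiled in control cells only. The first SMC3 library of each arm is the only one whose description names Abcam. The IgG control libraries were not analysed here, so background at open promoters was not tested. The data are lists of called peaks without height or read count, so depth is unknown.

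All 10 haematopoietic progenitor markers looked up, such as Tal1, Gata2, Runx1 and Kit, had reproducible H3K4me3. None of the 16 pluripotency, liver, muscle and epithelial markers did, and of 4 neural markers 1, Pax6, did. The shYY1 SMC3 lists held 2631 to 3213 peaks and the control SMC3 lists 2061 to 4595. YY1 lists held 3750 to 10699 peaks and H3K4me3 lists 16763 to 17895. The third library of YY1 and the third of control SMC3 were the shortest of their groups. Counts over all subunit genes are given with and without them, while counts by complex, promoter or neighbour use all libraries.

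H3K4me3 lay at nearly every subunit gene except tissue-restricted forms of complex IV. It was reproducible at 80 of 86 subunit genes, against 53.2% of all protein-coding genes, and each of the 80 had it in 3 of 3 libraries. All subunit genes of complexes I, II, III and V and Cycs were among them, but only 12 of 18 genes of complex IV. Within bulk reactions such as these, fewer cells with a target and less of it per cell cannot be told apart.

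The 6 complex IV genes without H3K4me3 were Cox4i2, Cox6a2, Cox6b2, Cox7b2, Cox8b and Cox8c. Each had no peak of any target in any of the 12 libraries. Cox4i2 is known as a lung and hypoxia form of subunit IV, Cox6a2 and Cox8b as heart and muscle forms, and Cox6b2, Cox7b2 and Cox8c as testis forms. Their widely used counterparts Cox4i1, Cox6a1, Cox6b1, Cox7b and Cox8a had H3K4me3 in 3 of 3 libraries. The heart and muscle form Cox7a1 was an exception among the tissue-restricted genes, with H3K4me3 over 432, 394 and 465 bp and no YY1 or SMC3. Ndufa4l2, a paralogue of Ndufa4 outside the 86 genes, likewise had H3K4me3 in 3 libraries and neither YY1 nor SMC3.

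The length covered by H3K4me3 was close to that of other genes. Its median over the 80 subunit genes was 1151 bp, against 1184 bp over all protein-coding genes with H3K4me3. Complex III had the longest median, 1299 bp, and complex II the shortest, 1041 bp, close to complex IV with 1043 bp. The shortest of all was Cox7b, with 250, 317 and 289 bp, and the longest was Atp5b, the gene of the catalytic beta subunit of ATP synthase, with 2842, 2347 and 2618 bp. The length at Atp5b came from a region at its start and another past its other end, nearer to Baz2a. These lengths were not tested against each other.

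**Figure D1:**
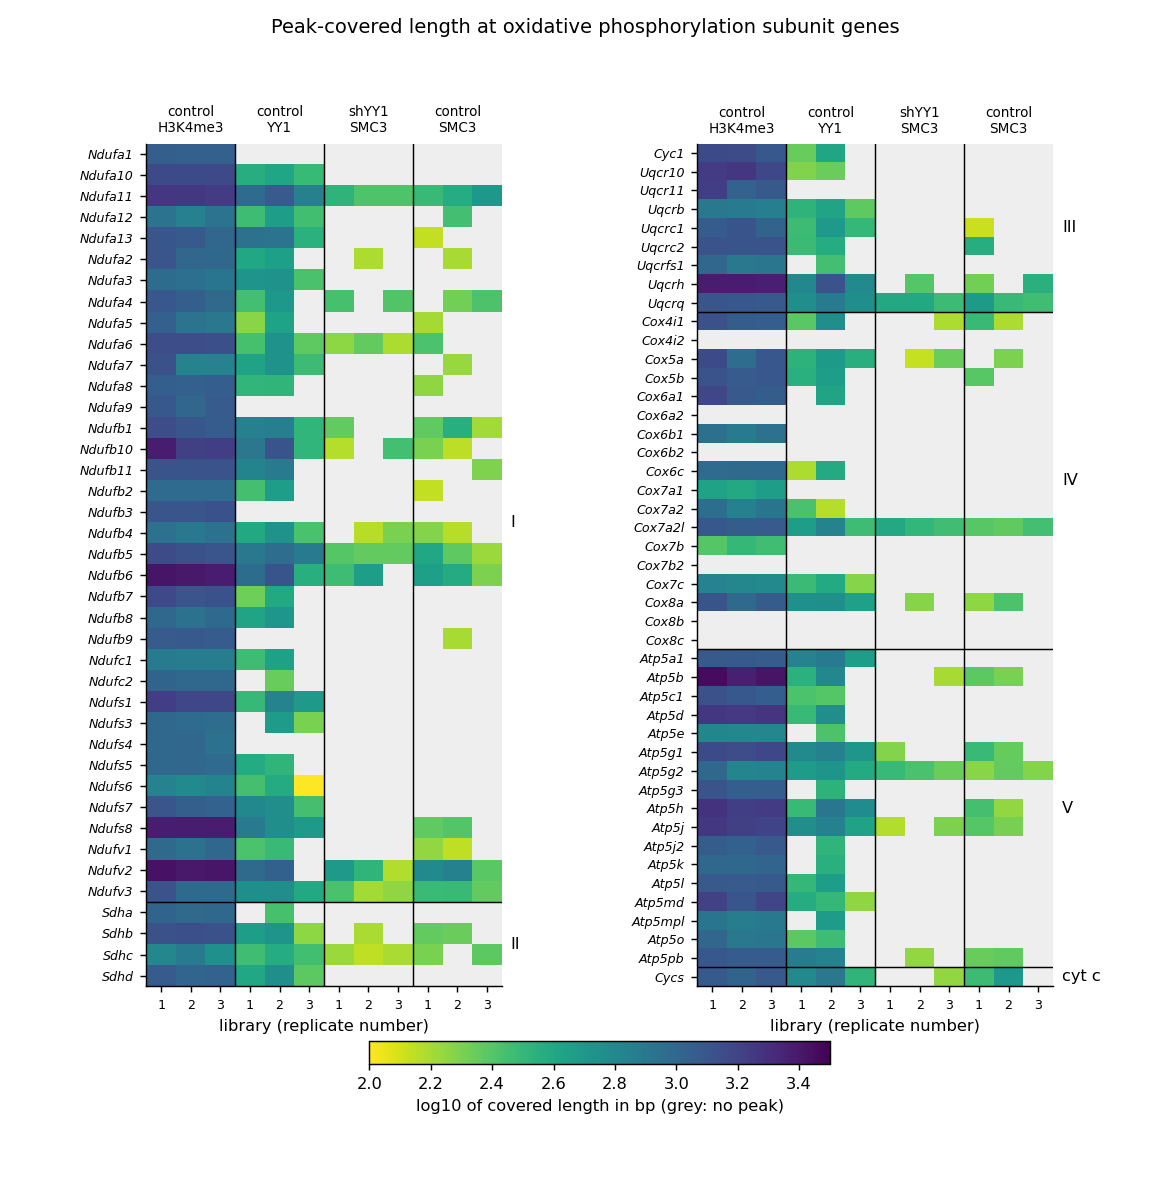
Length covered by peaks at the subunit genes (rows, by complex, without 1 complex I gene) in each library (columns, numbered by replicate); colour gives the log10 of the covered length in bp, values below the scale take its palest colour, and grey marks genes with no peak. H3K4me3 fills every row but 6 in complex IV, YY1 fills most, and SMC3 fills few, with 7 rows filled in all 6 SMC3 libraries.

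YY1 was called at most subunit genes, and complex I had the largest share among complexes with more than 4 genes. It was reproducible at 62 of 86 subunit genes (72.1%), against 34.6% of all protein-coding genes. The gap was smaller among genes with H3K4me3: of the subunit genes with H3K4me3, 62 of 80 (77.5%) had YY1, against 64.8% of all genes with H3K4me3. Complex I had YY1 at 31 of 37 genes, complex II at 3 of 4, complex III at 7 of 9, complex IV at 8 of 18 and complex V at 12 of 17, and Cycs had it too. Counted over genes with H3K4me3, complex IV had YY1 at 8 of 12 (66.7%) and complex V at 12 of 17 (70.6%), near the share of all genes with H3K4me3, and complex I at 83.8%. Differences between complexes were not tested.

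The 3 YY1 libraries called 61, 71 and 37 subunit genes, and 36 genes had YY1 in all of them. Without YY1 replicate 1 or replicate 2, with a call needed in both remaining libraries, the count of 62 became 37 or 36, while the count of 7583 over all protein-coding genes became 3986 or 3931. Without replicate 3, the shortest list, it was 61. Every subunit gene of complexes II and V and Cycs had YY1 in at least 1 library, while 15 of the 86 had none.

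**Figure D2:**
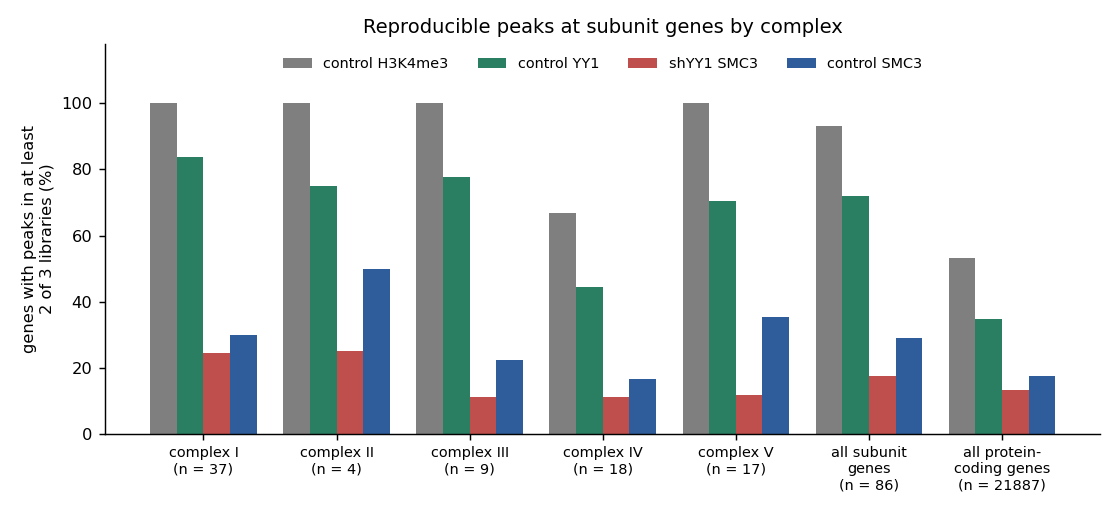
Percentage of genes with peaks in at least 2 of 3 libraries (y axis) for each complex, for all 86 subunit genes and for all 21887 protein-coding genes (x axis); bars give the 4 groups of libraries. YY1 was called at 83.8% of complex I genes and 44.4% of complex IV genes, and control SMC3 at 29.1% of all subunit genes. Cycs is counted under all subunit genes only.

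Among the genes with the longest YY1 peaks for their library, complex I gave Ndufa11 and Ndufb5, which encode accessory subunits of the membrane arm. YY1 covered 946, 1174 and 702 bp at Ndufa11 and 789, 924 and 747 bp at Ndufb5. Both genes had YY1 in every library, with the third library shortest.

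In complex II, YY1 was in 3 of 3 libraries at Sdhb, the iron-sulfur subunit, and at Sdhc and Sdhd, the membrane anchors. It was in 1 library at Sdha, the flavoprotein subunit. YY1 covered 465, 532 and 181 bp at Sdhb, and 399, 564 and 240 bp at Sdhd. In complex III the leading genes were Uqcrh, the hinge protein, Uqcrq, a small subunit of the quinone-binding part, and Uqcrc1, a core subunit. Cyc1, which encodes the cytochrome c1 subunit, had YY1 over 224 and 412 bp in the first and second library and none in the third.

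In complex IV the leading genes were Cox8a and Cox5a, both structural subunits, and Cox7a2l, known as an assembly factor that joins complexes III and IV. In complex V they were Atp5g1, 1 of the genes for the c-ring, and Atp5h and Atp5j, both of the peripheral stalk. YY1 covered 612, 689 and 509 bp at Atp5g1 and 572, 695 and 432 bp at Atp5j. Cycs had 620, 800 and 331 bp of YY1. These genes were chosen by the rank of their YY1 peak length, so the lengths are a description.

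YY1 was not called at some subunit genes with H3K4me3, 9 of 80 (11.2%), against 21.9% of all genes with H3K4me3. Ndufa1, Ndufa9, Ndufb3, Ndufs4, Uqcr11, Cox6b1, Cox7a1 and Cox7b had H3K4me3 in 3 of 3 libraries and neither YY1 nor SMC3 in any library. Ndufs4 and Ndufa9 encode accessory subunits of complex I that are known from patients with complex I deficiency. Ndufb9 had no YY1 either, but SMC3 over 158 bp in 1 control library.

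YY1 summits lay close to annotated starts. Of the 62 subunit genes with reproducible YY1, 51 had a start in the RefSeq promoter table, and the median summit lay 15 bp upstream (offset -15 bp), with 43 of 51 within 250 bp. H3K4me3 summits had a median offset of 49 bp over 67 genes. SMC3 summits had a median offset of -42 bp in shYY1 cells over 13 genes, with 10 of them within 250 bp, and of -64.5 bp in control cells over 22 genes, with 15 within 250 bp. At Atp5h the YY1 summits lay 6517, 6676 and 6726 bp downstream of the start, past the other end of the gene and nearer to Mrpl58.

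The promoter sequences of 70 of the 86 subunit genes, with 75 starts, were in the RefSeq table for GRCm38.p6, each 250 bases before to 50 after a start. Genes without a matched entry include Atp5a1, Atp5mpl, Cox4i1, Cox4i2, Cox6a2, Cox6c, Cox8c, Cyc1, Ndufa2, Ndufb9, Ndufs1, Sdhc, Uqcrb, Uqcrc2 and Uqcrq. YY1 overlapped 50 of the 75 promoters (66.7%) reproducibly, against 18.6% of all promoters in the table. SMC3 of shYY1 cells overlapped 10 (13.3%), against 6.45%, and control SMC3 overlapped 18 (24.0%), against 8.53%. H3K4me3 overlapped 71 of the 75 promoters and 33.2% of all promoters. The table also holds promoters of genes that are not protein-coding, so the gaps were smaller against its 21263 protein-coding promoters. Of these, YY1 overlapped 25.97%, shYY1 SMC3 8.92%, control SMC3 11.81% and H3K4me3 45.28%.

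A YY1 motif was searched as AANATGGCG on both strands, where N is any base. It was found in 10 of 75 promoters (13.3%), against 2.38% of all promoters and 6.19% of protein-coding promoters with H3K4me3. It was in 7 of the 50 promoters with a YY1 peak and in 3 of the 25 without. The sites are shown because most share the same letters at nearly the same distance from the start: in 7 of the 10 the first base lay between 16 and 35 bases after the start, which is counted as 0. Capitals mark the motif, read 5′ to 3′ along the gene's strand, with RefSeq sequence of GRCm38.p6.
Ndufa7: gagcggaaggAATATGGCGtccgctactc
Ndufa9: attgtgggagAAGATGGCGgccgccgtcc
Ndufb11: tcaccaacacAAAATGGCGacgagaagag
Ndufc1: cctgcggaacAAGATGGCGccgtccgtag
Ndufs4: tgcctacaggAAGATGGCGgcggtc
Ndufs6: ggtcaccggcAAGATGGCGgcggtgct
Ndufs7: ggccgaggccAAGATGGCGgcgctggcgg
Atp5b: acccggattcCGCCATGTTgagtcttgtg
Atp5j: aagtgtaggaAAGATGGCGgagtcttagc
Atp5j2: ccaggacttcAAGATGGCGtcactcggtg
YY1 peaks overlapped the promoter in 3 of 3 libraries at Ndufa7, Ndufs7 and Atp5j, and in 2 at Ndufb11, Ndufc1, Ndufs6 and Atp5b. They overlapped it in 1 library at Atp5j2 and in none at Ndufa9 and Ndufs4, although both hold the letters AAGATGGCG. A match is a description of letters, not a binding site, and a peak can come from letters outside the window.

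The NRF1 motif, searched as GCGCANGCG on both strands, was found in 22 of 75 promoters (29.3%), against 6.25% of all promoters and 16.0% of protein-coding promoters with H3K4me3. The GABP motif CCGGAAGT was in 5 promoters (6.67%), against 3.89% and 10.2%. The Sp motif GGGGCGGGG was in 11 (14.7%), against 11.4% and 23.8%. Shorter cores gave 28.0% for YY1 (ATGGCG), 18.7% for NRF1 (GCATGC), 40.0% for GABP (CGGAAG) and 40.0% for Sp (GGGCGG), against 8.93%, 7.93%, 16.9% and 35.7% of all promoters. Among protein-coding promoters with H3K4me3 the cores were in 17.9%, 10.5%, 37.0% and 69.4%. GCATGC fixes the free base of the NRF1 motif as T, so it is not a looser search. It was in 14 of the 75 promoters, against 22 for the full motif. No match of 1 full motif shared a base with a match of another in these promoters. The promoters of subunit genes had a median of 57.7% G and C and 19 CpG. The medians were 56.3% and 13 for protein-coding promoters, and 52.7% and 7 for all promoters. The part of base composition in these shares was not tested.

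SMC3 was reproducible at a minority of subunit genes in both arms, each of them with reproducible YY1. It was reproducible at 15 of 86 subunit genes in shYY1 cells (17.4%), against 13.2% of all protein-coding genes, and at 25 in control cells (29.1%), against 17.5%. Over genes with H3K4me3 the order was the other way: 15 of 80 subunit genes (18.8%) had shYY1 SMC3, against 24.7% of all such genes, and 25 (31.2%) had control SMC3, against 32.6%. All 15 and all 25 genes had reproducible YY1, as had 98.7% of all genes with reproducible shYY1 SMC3 and 97.9% of those with control SMC3. No SMC3 library had a peak at 47 of the 86 genes (54.7%), against 73.6% of all protein-coding genes.

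Of the 27 subunit genes with reproducible SMC3 in either arm, 13 (48.1%) had it in both, 2 in shYY1 cells only (Ndufa6 and Cox5a) and 12 (44.4%) in control cells only. Over all protein-coding genes, 2701 of 4021 (67.2%) had it in both arms, 196 in shYY1 cells only and 1124 (28.0%) in control cells only. In shYY1 cells, SMC3 was at 9 genes of complex I, 1 of complex II, 1 of complex III, 2 of complex IV and 2 of complex V. In control cells it was at 11, 2, 2, 3 and 6, and at Cycs. Without control SMC3 replicate 1 or replicate 2, with a call needed in both remaining libraries, the control count of 25 became 10 or 11. Those are 11.6% and 12.8% of subunit genes, against 9.30% and 9.32% of all protein-coding genes. For the control arm, leaving out both libraries named Abcam is the same as leaving out replicate 1 and also gave 10. Without replicate 3, the shortest list, the control count was 22 (25.6%, against 16.9% of all protein-coding genes). When every SMC3 list was cut to the length of the shortest by keeping its longest peaks, which was decided after seeing the data, the counts were 7 in shYY1 cells and 8 in control cells. Those are 8.14% and 9.30% of subunit genes, against 9.53% and 9.69% of all protein-coding genes. By the rule of 2 of 3 libraries, the higher share at subunit genes was thus not seen with lists cut in this way. The cut keeps long peaks, so it changes peak length as well as list length. Control SMC3 replicate 3, the shortest list and so not cut, had SMC3 at 15.1% of subunit genes and 9.81% of all protein-coding genes.

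SMC3 was more frequent at genes with YY1 in more libraries. Among subunit genes with H3K4me3 and YY1 in 3 of 3 libraries, 13 of 36 (36.1%) had shYY1 SMC3 and 19 (52.8%) had control SMC3. Among those with YY1 in 2 libraries, 2 of 26 and 6 of 26 did, and among the 18 with YY1 in 1 or 0 libraries, none did in either arm. At equal YY1 support the shares stayed below those of all protein-coding genes with H3K4me3, of which 57.5% had shYY1 SMC3 and 69.7% control SMC3 with YY1 in 3 libraries. The lower shares came beside shorter H3K4me3 regions, with a median of 1193 bp at the 36 subunit genes and 1372 bp at all genes with YY1 in 3 libraries, and the part of that length was not tested.

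**Figure D3:**
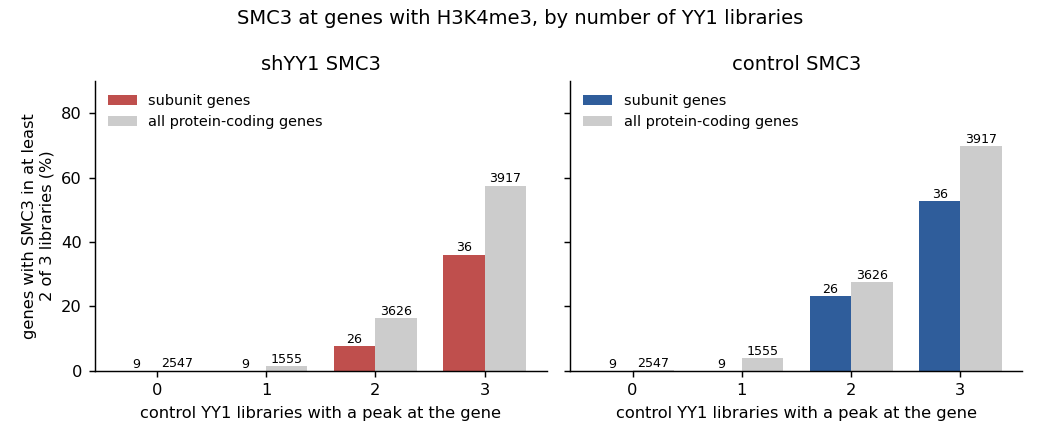
Percentage of genes with SMC3 in at least 2 of 3 libraries (y axis) by the number of control YY1 libraries with a peak at the gene (x axis), over genes with reproducible H3K4me3, for shYY1 cells (left) and control cells (right); coloured bars are subunit genes, grey bars all protein-coding genes, and the number over each bar is the number of genes. Subunit genes with YY1 in 3 libraries had SMC3 at 36.1% in shYY1 and 52.8% in control cells, and those with YY1 in 0 or 1 library at 0%.

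SMC3 was called in all 6 libraries at 7 subunit genes: Ndufa11, Ndufb5, Ndufv2, Ndufv3, Uqcrq, Cox7a2l and Atp5g2. That is 8.14% of subunit genes, against 6.84% of all protein-coding genes. With equal numbers of longest peaks, or with the longer peaks of each list, Ndufa11 and Uqcrq had SMC3 in all 6 libraries and the other 5 in 1 to 5. All but Ndufv2 also had YY1 in 3 of 3 libraries. At Ndufa11 (chromosome 17), SMC3 covered 333, 258 and 259 bp in shYY1 cells, against 304, 371 and 503 bp in control cells. The groups overlapped, and the control library with the shortest list had the longest value. The SMC3 regions of shYY1 cells (chr17:56717039-56717371) and of control cells (chr17:56717023-56717531) lay inside the YY1 region (chr17:56716826-56717999). They were upstream of the start of Ndufa11, with median summits at -441 and -444 bp, and overlapped the neighbouring gene Vmac, whose end was nearer.

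Ndufb5 on chromosome 3 had SMC3 over 249, 228 and 228 bp in shYY1 cells, against 398, 235 and 169 bp in control cells, so the shYY1 values lay inside the control range. Its SMC3 region in shYY1 cells (chr3:32736760-32737050) lay between its start and that of Mrpl47, a gene of the mitochondrial ribosome. The control SMC3 region (chr3:32736684-32737081) and the YY1 region (chr3:32736397-32737320) covered the starts of both genes, and the median SMC3 summit was at -142 bp in both arms. Ndufv3 on chromosome 17, an accessory subunit of the part that oxidises NADH, had 269, 161 and 177 bp in shYY1 cells, against 302, 304 and 229 bp in control cells. Its shYY1 values were lower for 2 of the 3 libraries than any control value, and the groups overlapped. Its median SMC3 summits were 54 bp upstream in shYY1 cells and 50 bp upstream in control cells, and its median YY1 summit was 54 bp upstream.

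Ndufv2, a core iron-sulfur subunit of the same part of complex I, had SMC3 over 492, 332 and 148 bp in shYY1 cells, against 602, 695 and 243 bp in control cells. These values come from separate regions. At the start (chr17:66101496-66101735 in shYY1, chr17:66101442-66101798 in control) SMC3 was in 3 shYY1 and 2 control libraries. Past the other end of the gene, inside Ankrd12 and over its listed start (chr17:66076871-66077184 in shYY1, chr17:66076812-66077332 in control), it was in 2 shYY1 and 3 control libraries.

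Uqcrq on chromosome 11 had SMC3 over 391, 387 and 295 bp in shYY1 cells, against 480, 306 and 290 bp in control cells, with nearly equal means of 358 and 359 bp. Its region (chr11:53430795-53431232 in shYY1, chr11:53430753-53431232 in control) lay at its own end and overlapped Gdf9, with median summits 196 bp from that end in shYY1 cells and 169 bp in control cells. Cox7a2l on chromosome 17 had 394, 322 and 289 bp in shYY1 cells, against 244, 233 and 279 bp in control cells. Every shYY1 value lay above every control value there. Atp5g2 on chromosome 15, another c-ring gene, had 309, 268 and 219 bp in shYY1 cells, against 185, 230 and 190 bp in control cells, and the groups overlapped by 1 library.

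The promoters of 5 of these genes are shown because they carried SMC3 in every library, followed by 2 with H3K4me3 and no YY1 or SMC3 in any library, Cox6b1 and Cox7a1. They are RefSeq sequence of GRCm38.p6, 5′ to 3′ along the gene's strand, at chr17:56717512-56717811 (plus) for Ndufa11, chr3:32736813-32737112 (plus) for Ndufb5, chr17:31519865-31520164 (plus) for Ndufv3, chr17:83514284-83514583 (minus) for Cox7a2l, chr15:102670998-102671297 (minus) for Atp5g2, chr7:30626065-30626364 (minus) for Cox6b1 and chr7:30183921-30184220 (plus) for Cox7a1. Capitals mark the YY1 core ATGGCG and the NRF1 motif GCGCANGCG, which matches both strands of the marked stretch at Ndufa11 and Atp5g2.
Ndufa11: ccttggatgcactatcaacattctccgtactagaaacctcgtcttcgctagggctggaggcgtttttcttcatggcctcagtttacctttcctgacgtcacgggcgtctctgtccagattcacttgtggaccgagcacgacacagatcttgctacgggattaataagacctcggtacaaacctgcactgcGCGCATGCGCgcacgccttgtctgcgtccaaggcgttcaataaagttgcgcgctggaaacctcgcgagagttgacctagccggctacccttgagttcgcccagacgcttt
Ndufb5: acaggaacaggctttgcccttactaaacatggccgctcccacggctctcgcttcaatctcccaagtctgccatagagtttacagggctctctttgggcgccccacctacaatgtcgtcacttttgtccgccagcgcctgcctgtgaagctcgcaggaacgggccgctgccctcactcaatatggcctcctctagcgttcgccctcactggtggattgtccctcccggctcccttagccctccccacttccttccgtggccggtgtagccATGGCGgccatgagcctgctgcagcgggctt
Ndufv3: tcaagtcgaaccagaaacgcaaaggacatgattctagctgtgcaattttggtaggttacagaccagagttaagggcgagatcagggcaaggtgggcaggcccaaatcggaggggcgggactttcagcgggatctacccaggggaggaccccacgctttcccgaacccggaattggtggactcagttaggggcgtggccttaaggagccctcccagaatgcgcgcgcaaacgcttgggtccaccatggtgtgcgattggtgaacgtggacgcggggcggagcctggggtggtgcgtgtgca
Cox7a2l: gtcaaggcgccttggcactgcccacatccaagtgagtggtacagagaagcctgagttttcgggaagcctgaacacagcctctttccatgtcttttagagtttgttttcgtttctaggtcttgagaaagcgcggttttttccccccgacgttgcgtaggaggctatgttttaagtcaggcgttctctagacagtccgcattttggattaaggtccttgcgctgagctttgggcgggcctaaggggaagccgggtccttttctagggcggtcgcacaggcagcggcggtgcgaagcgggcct
Atp5g2: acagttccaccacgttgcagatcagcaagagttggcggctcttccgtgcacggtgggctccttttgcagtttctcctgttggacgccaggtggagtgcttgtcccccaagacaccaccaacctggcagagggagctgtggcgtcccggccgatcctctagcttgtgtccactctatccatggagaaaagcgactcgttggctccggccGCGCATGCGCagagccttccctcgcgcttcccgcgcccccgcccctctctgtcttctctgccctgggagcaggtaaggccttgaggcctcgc
Cox6b1: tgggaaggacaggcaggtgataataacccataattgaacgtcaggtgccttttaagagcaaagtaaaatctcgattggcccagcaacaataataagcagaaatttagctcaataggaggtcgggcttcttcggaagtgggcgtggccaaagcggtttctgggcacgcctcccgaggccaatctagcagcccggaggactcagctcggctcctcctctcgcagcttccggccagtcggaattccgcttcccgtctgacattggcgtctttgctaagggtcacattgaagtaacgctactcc
Cox7a1: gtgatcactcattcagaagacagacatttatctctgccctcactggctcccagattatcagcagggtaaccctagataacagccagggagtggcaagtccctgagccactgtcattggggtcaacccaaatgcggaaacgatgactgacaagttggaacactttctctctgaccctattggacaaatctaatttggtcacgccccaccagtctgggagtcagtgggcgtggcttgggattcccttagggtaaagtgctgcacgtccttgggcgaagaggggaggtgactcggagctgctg
The NRF1 motif began 60 bases before the start at Ndufa11 (position -60) and 42 before it at Atp5g2 (position -42), and the YY1 core began 19 bases after the start at Ndufb5. Ndufv3, Cox7a2l, Cox6b1 and Cox7a1 held neither. The YY1 summits at Ndufb5 lay at -138, -174 and -174 bp, away from the marked core, and those at Atp5g2 at 36 bp in each library. Over these 300 bases, SMC3 overlapped in all 6 libraries at Ndufb5, Ndufv3, Cox7a2l and Atp5g2, and at Ndufa11 in 0 shYY1 and 1 control library, its main region lying upstream. CpG numbered 25 at Ndufa11 and 7 at Cox7a1.

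The next comparison asked how SMC3 at these genes differed in cells with the shRNA against YY1. Fewer subunit genes had SMC3 in shYY1 cells on average, by less than the spread of the control libraries. The shYY1 libraries had SMC3 at 15, 17 and 17 subunit genes, against 32, 28 and 13 in the control libraries. That is 19.0% ± 1.34 in shYY1 cells and 28.3% ± 11.6 in control cells (SD, n = 3 each), a difference of -9.30 percentage points. The third control library, with 2061 peaks, lay below all shYY1 libraries, and the other two control libraries above them. Over all protein-coding genes the shares were 13.9% ± 1.04 and 17.1% ± 6.32, a difference of -3.25 points.

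The 2 libraries with the most peaks, control replicates 1 and 2, had the highest shares of subunit genes. Divided by the share of all genes in the same library, it was 1.37, 1.35 and 1.39 in shYY1 cells, against 1.81, 1.56 and 1.54 in control cells, so every shYY1 ratio was below every control ratio, and the difference in means was -0.264. That difference was -0.0995 with all SMC3 lists cut to 2061 longest peaks, and -0.18 without both Abcam libraries. Without control SMC3 replicate 3 the difference in share was -15.9 points, against -6.89 over all protein-coding genes. Without control SMC3 replicate 1 it was -4.84, against -1.51, and without both Abcam libraries -4.07, against -0.923. With all SMC3 lists cut to 2061 longest peaks it was -1.16 points (11.2% in shYY1 and 12.4% in control cells), against -0.213. No p is given for these shares, since the genes were chosen with results of these data known.

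**Figure D4:**
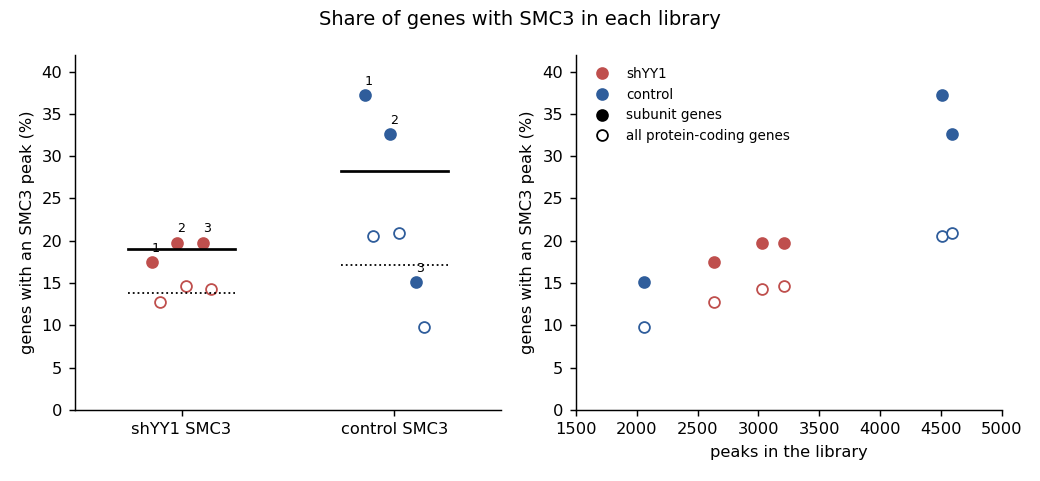
Percentage of genes with an SMC3 peak in each library (y axes), for shYY1 and control cells (left, points numbered by replicate, lines are means) and against the number of peaks in the library (right); filled points are the 86 subunit genes and open points all protein-coding genes. The shYY1 libraries lie between 17.4 and 19.8% for subunit genes, inside the control range of 15.1 to 37.2%, and the control libraries with 4511 and 4595 peaks lie above the rest.

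No subunit gene passed a test between the arms. SMC3 was in at least 1 of the 6 libraries at 39 subunit genes, and 31 of these (79.5%) had a lower mean covered length in shYY1 cells, against 72.4% of the 5776 genes tested. The median difference was -64.7 bp at subunit genes and -48.3 bp over all genes tested. The exact two-sided permutation test over 20 assignments cannot give a p below 0.1, and the lowest Benjamini-Hochberg adjusted p over all genes was 1.0. An unadjusted p under 0.05 was thus not possible by this test at any gene.

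Cox7a2l was the only subunit gene whose arms did not overlap. SMC3 there covered 335 bp on average in shYY1 cells and 252 bp in control cells, 83.0 bp more (exact permutation p = 0.1, the smallest possible). It was thus the 1 of 39 subunit genes tested that was higher without overlap, where 0.485% of all genes tested were. Lower without overlap were 0 of the 39, against 3.98% of all genes tested. When control SMC3 replicate 3 was left out, 12 subunit genes were lower, and 1576 of all 5747 genes. Leaving out shYY1 replicate 1 gave 3 subunit genes and 399 of all genes. Leaving out control replicate 1 or replicate 2 gave 1 subunit gene each, and 296 or 323 of all genes. The count of higher subunit genes was 2 without shYY1 replicate 3, control replicate 1 or control replicate 2, where it was 97, 121 and 111 over all genes, and Cox7a2l was among them each time.

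In number of libraries, 4 of the 39 subunit genes tested had SMC3 in at least 2 fewer shYY1 than control libraries. That is near the share of all genes tested, 10.3%. Of the 39, 1 had it in at least 2 more, where 1.11% of all genes tested did. The 4 were Ndufb1, Ndufs8, Ndufv1 and Atp5h. With equal numbers of longest peaks the difference was 0 at Ndufs8 and Ndufv1, and with the nearest gene only it was 0 at Ndufb1 and Atp5h. Ndufb1, a small accessory subunit of complex I, had SMC3 over 228, 0 and 0 bp in shYY1 cells, against 233, 359 and 161 bp in control cells. Its SMC3 summits lay within Cpsf2, the neighbouring gene, whose end was nearer. Ndufs8, a core iron-sulfur subunit, had no shYY1 peak and 231, 252 and 0 bp in control cells.

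Ndufv1, the core subunit that binds NADH and flavin, had no SMC3 peak in shYY1 cells and 174, 139 and 0 bp in control cells. Atp5h had none in shYY1 cells and 278, 174 and 0 bp in control cells, in that same stretch nearer to Mrpl58 (chr11:115413181-115413468). With a window of 1000 bp the arms did not differ in number of libraries at Atp5h (difference 0). In Ndufs8, Ndufv1 and Atp5h the control library without a peak was the third, the shortest list. Ndufa6, an accessory subunit of complex I, was the 1 gene with more, with 180, 229 and 152 bp in shYY1 cells and 265, 0 and 0 bp in control cells. With only the longer peaks of each list, Ndufa6 had 1 library fewer in shYY1 than in control cells.

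Cycs had SMC3 over 0, 0 and 175 bp in shYY1 cells, against 298, 504 and 0 bp in control cells. The single shYY1 value came from the third library and both control values from the first and second, and the mean difference of -209 bp had an exact permutation p of 0.4. In complex V, Atp5g1 and Atp5pb, a peripheral stalk gene, had SMC3 in 1 shYY1 and 2 control libraries. Atp5b had it at its start in 1 library of each arm, and in 1 more control library at a region nearer to Baz2a (chr10:128091614-128091813). Sdhb in complex II had 0, 156 and 0 bp in shYY1 cells, against 229, 219 and 0 bp in control cells. Sdhc had SMC3 over 167, 140 and 156 bp in shYY1 cells, against 199, 0 and 238 bp in control cells, so here the second control library lacked a call.

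**Figure D5:**
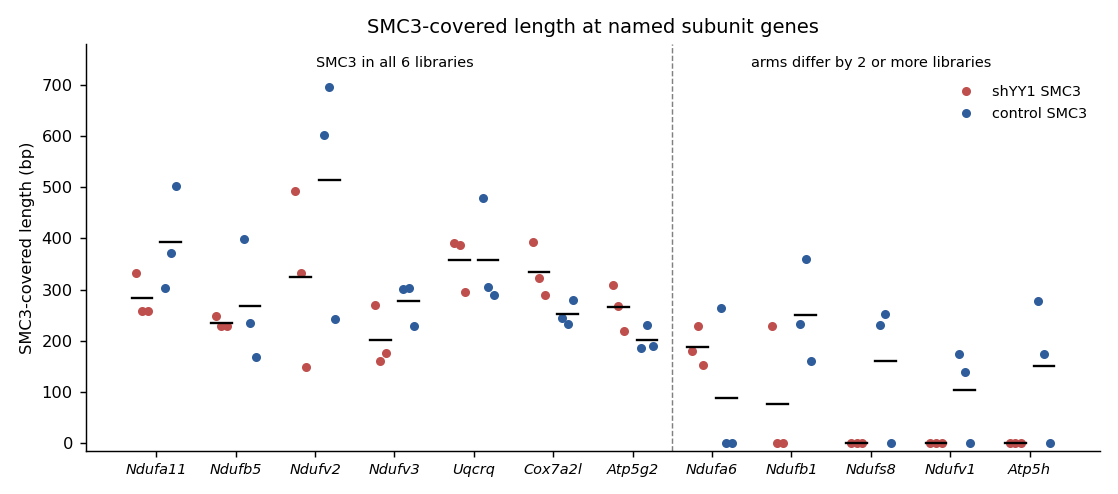
Length covered by SMC3 peaks in bp (y axis) at the 7 subunit genes with SMC3 in all 6 libraries and the 5 whose arms differ by at least 2 libraries (x axis); each point is 1 library, shYY1 left of control, and lines are means. At Cox7a2l all shYY1 points (289 to 394 bp) lie above the control points (233 to 279 bp), and at Ndufs8, Ndufv1 and Atp5h all shYY1 points are at 0.

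Peak lengths were also compared where SMC3 was called in all 6 libraries, which left 1498 genes, 7 of them subunit genes. With limma on the log2 covered length, centred on each library's median, 0 of the 1498 genes passed an adjusted p of 0.05, and 64 had an unadjusted p under 0.05. Atp5g2 was the only subunit gene among those 64, with a log2 difference of 0.49 ± 0.22 (SE, limma adjusted p = 0.926). Cox7a2l had 0.51 ± 0.24 (SE, limma adjusted p = 0.926), and Ndufv2 had -0.58 ± 0.43 (SE, limma adjusted p = 0.982). The median over the 7 subunit genes was 0.01 on the log2 scale, against 0.00 over all 1498.

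Many of these peaks also lie at the end of a neighbouring gene. Each peak was then counted only for the gene with the nearest end. By that rule YY1 was reproducible at 49 subunit genes, shYY1 SMC3 at 11 and control SMC3 at 17. Those are 57.0%, 12.8% and 19.8% of subunit genes, against 28.3%, 10.6% and 13.9% of all protein-coding genes. A head-to-head partner, a protein-coding gene that starts within 1000 bp on the other strand, was found for 19 of the 70 subunit genes with a start (27.1%), against 8.48% of the 17492 protein-coding genes of the promoter table. Pairs included Ndufa7 with Rps28 (10 bp between starts), Sdhd with Timm8b (52 bp), Ndufa11 with Vmac (63 bp), Atp5j with Gabpa (148 bp) and Ndufb5 with Mrpl47 (308 bp). Gabpa encodes the DNA-binding subunit of GABP, and Timm8b a chaperone of mitochondrial protein import.

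YY1 was at 17 of the 19 subunit genes with such a partner and 34 of the 51 without. SMC3 of shYY1 cells was at 4 of 19 and 9 of 51, and control SMC3 at 8 of 19 and 14 of 51. These shares were not tested, and the same shares over all protein-coding genes with and without a partner were not counted. The window of a gene with a partner also takes in the start of the partner, and the part of this was not tested. At Atp5j, SMC3 covered 148, 0 and 198 bp in shYY1 cells, against 247, 203 and 0 bp in control cells, and its YY1 and SMC3 regions (YY1 at chr16:84834649-84835378) were nearer to Gabpa.

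Genes that build, feed or regulate the chain were counted in the same way. Of all protein-coding genes, 34.6% had YY1, 13.2% shYY1 SMC3 and 17.5% control SMC3. Of all genes with H3K4me3, which every gene of these lists had, it was 64.8%, 24.7% and 32.6%. Differences between these lists, the subunit genes and all genes were not tested. Of the 48 assembly factors and chaperones of complexes I to V, 35 had YY1 (72.9%), 15 shYY1 SMC3 (31.2%) and 20 control SMC3 (41.7%). Tmem126b and Coa7, assembly factors of complexes I and IV, and Bcs1l, the chaperone that inserts the iron-sulfur subunit of complex III, had SMC3 and YY1 in every library. Cox18 and Cox20 of this list did too. Of 13 tricarboxylic acid cycle genes, 8 had YY1 (61.5%), 5 shYY1 SMC3 (38.5%) and 7 control SMC3 (53.8%). Idh3g, Suclg1, Fh1 and Mdh2 had SMC3 and YY1 in every library. Of 12 regulators of mitochondrial genes, 10 had YY1 and 6 had SMC3 in each arm, with Tfb1m, Tfb2m, Esrra and Yy1 itself in all 6 SMC3 libraries. In none of these 3 lists did a gene have non-overlapping arms.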

How the data were processed

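CUT&Tag peak lists of 12 libraries of HPC-7 cells were used. Per the labels' protocol, each group's libraries are biological replicates. The deposited files give the start, end and summit offset of each peak in base pairs, for mm10, with 1 list per library and no score, height, p-value or count. The submitters' processing notes name MACS2 2.2.9.1, Picard 3.1.1, Bowtie2 2.5.1 and cutadapt 4.5. Whether IgG served as background, and which peak threshold was set, was not given in the sources used here.

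Gene spans came from the RefSeq table of GRCm38.p6, and promoters from its table of 300-base sequences. Peaks were matched to gene spans extended by 2500 bp. Covered length is the number of base pairs under peaks in that window, and peaks of a target that overlapped by at least 1 bp were merged into regions. Coordinates count from 1. Where a gene has several listed starts, summit offsets use the nearest. Each gene was compared between arms by exact two-sided permutation, and with limma 3.58.1 in R 4.3.3 on log2 covered length, with Benjamini-Hochberg adjustment over all genes tested. Python 3.11.15 was used for the rest. The limma comparison was tested on simulated data, and the matching of peaks to genes on simulated peaks. As the lists hold no score, a minimum on peak length stood in for a stricter threshold.

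The subunit genes, the gene lists and the rules were chosen with earlier results of these data known. Described one by one were genes without reproducible H3K4me3, genes with SMC3 in all 6 libraries, genes whose arms differ by at least 2 SMC3 libraries, the 3 of each complex with the highest percentile of YY1 peak length, Cycs and Cyc1. Of these, 1 gene of complex I is counted but not reported here. Others named, such as the genes without YY1, were chosen after their values were seen. The alternatives were windows of 1000 bp, gene ends only, summits in the window, the nearest gene only, the longer peaks of each list, equal numbers of longest peaks, 3 of 3 libraries, leaving out each library or both Abcam libraries, and a replicate block.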

Additional observations from a re-analysis of the deposited data

How the results depend on the processing

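Counts of subunit genes with H3K4me3 stayed within 1.5 times of 80 in every alternative. YY1 at 62 genes became 38 with the longer peaks of each list, 36 with 3 of 3 libraries, and 36 to 61 with 1 library left out. The count of 7583 over all protein-coding genes became 4383, 3925 and 3931 to 7516 under the same settings. SMC3 of shYY1 cells at 15 subunit genes became 6 with the longer peaks and 9 with 3 of 3 libraries. It became 7 with equal numbers of longest peaks (chosen after the data were seen) and 10 to 12 with 1 library left out. Control SMC3 at 25 genes became 6, 9, 8 and 10 to 22, and 10 without both Abcam libraries, for this arm the same as without replicate 1. With the longer peaks, 6.98% of subunit genes had SMC3 in each arm, against 6.91% (shYY1) and 9.06% (control) of all protein-coding genes. With 3 of 3 libraries it was 10.5% in each arm, against 8.85% (shYY1) and 9.02% (control). For shYY1 SMC3, the count of 2897 over all protein-coding genes became 2188 to 2384 with 1 library left out. For control SMC3, the count of 3825 became 2036 to 3697. With equal numbers of longest peaks these counts were 2086 and 2121. The difference in share (-9.30 points) kept its sign in every alternative, from -15.9 to -4.84 with 1 library left out and -1.16 with equal numbers of longest peaks. Over all protein-coding genes it was -6.89 to -1.33 and -0.213 under the same settings. The number of subunit genes with YY1 minus the number with control SMC3 was 37, and 15 with equal numbers of longest peaks. Without overlap, lower genes numbered 0 to 12 and higher genes 1 to 2 with 1 library left out, and higher genes 2 with equal numbers of longest peaks. Ndufa6 had 2 more SMC3 libraries in shYY1 than in control cells, and -1 with the longer peaks. The share of promoters with a motif over that of all promoters was 5.60 for YY1 and 4.69 for NRF1, and 3.14 and 2.35 with shorter cores. The NRF1 core fixes the free base of the motif, so its value is not that of a looser motif. The cause of these changes was not tested, beyond the stricter rules that fewer peaks or libraries make.

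Libraries of the 2 arms share replicate numbers. The deviations of same-numbered SMC3 libraries correlated at 0.04, 0.01 and -0.04 over 1498 genes, so the numbers are not treated as pairs. With the number as a block, the share differed by -9.30 points on average (-19.8, -12.8 and 4.65 for the 3 numbers), 3 of 39 subunit genes were lower and 2 higher with the same sign in all 3 numbers (7.69% and 5.13%, against 8.59% and 1.84% of all genes tested), and limma called 0 genes (79 with an unadjusted p under 0.05, against 64 without the block). It called 0 genes in the other alternatives run too, with 58 to 93 at an unadjusted p under 0.05. With 3 libraries an arm, no permutation p can pass 0.05, so an unchanged side of that threshold says nothing of stability. Peak lists give calls without depth, and the number of calls in a library limits every share given here.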

Other observations

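Some calls at complex I genes lay at an end of a neighbouring gene or within it. At Ndufb6, which encodes an accessory subunit of the membrane arm, SMC3 was in 2 shYY1 and 3 control libraries at a region (chr4:40269631-40269936 in shYY1, chr4:40269667-40269956 in control) whose median summits lay 2 and 3 bp from an end of Topors, a ubiquitin and SUMO ligase gene. Nearer its own end, SMC3 was in 1 shYY1 and 2 control libraries (chr4:40279353-40279573 in shYY1, chr4:40279244-40279515 in control). At Ndufb10, an accessory subunit of the same arm, SMC3 lay in 2 libraries of each arm, with median summits 2087 bp from the end of Ndufb10 in shYY1 cells and 2062 bp in control cells. These summits lay within Rps2, a ribosomal protein gene, 1852 bp from an end of Rps2 in shYY1 cells and 1877 bp in control cells. YY1 was in 3 libraries at that region and in 2 at the other end of Ndufb10, 22 bp from it, where SMC3 had no region. These regions were chosen after their values were seen.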
